A study of Homo sapiens with 4 samples.

Results

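Chromosome 19 carries the densest collection of zinc finger genes in the human genome, and the genes described here were the protein-coding genes of chromosome 19 (GRCh38) whose symbol is ZNF followed by a number. Of 249 such annotated genes, 227 (91.2%) had a value above 0.004 FPKM in each of the 4 libraries, and these 227 are the members of the group, out of 20510 genes of all kinds that passed the same threshold. The libraries were made from 293T cells, a human embryonic kidney cell line, transfected with a negative control RNA or with the mimic of 1 of 3 miRNAs (miR-1, miR-122, miR-124), 1 library for each condition. A mimic is a short synthetic RNA duplex with the sequence of the mature miRNA. The sample labels give 48 h of transfection for all 4, the study's methods give a shorter time, and neither names a clone of the line. With 1 library per condition, no difference between conditions has a replicate check, so the intervals given here cover the counting of reads only and compare libraries, not treatments.

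Most proteins of this family join a KRAB box at the amino terminus to a row of C2H2 zinc fingers, each of which can read a few bases of DNA. The KRAB box binds TRIM28, which brings in the histone methyltransferase SETDB1 and heterochromatin proteins, and many members are known to silence transposable elements. The genes spread by tandem duplication, lie in clusters, and share much of their sequence. miRNAs act mainly by pairing of the seed, bases 2 to 8 of the miRNA, with a site in the 3′ UTR of an mRNA, which lowers the amount of that mRNA or its translation. miR-1 is known from muscle, miR-122 from liver, and miR-124 from neurons.

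The mature sequences (RefSeq, GRCh38.p14) are shown with the seed in capitals because the searches for matches rest on it.
hsa-miR-1-3p: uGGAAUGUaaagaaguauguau
hsa-miR-122-5p: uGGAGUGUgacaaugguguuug
The words searched on the mRNA strand were ACATTCC for miR-1, ACACTCC for miR-122, and GTGCCTT for miR-124, and a match of 8 letters has an A after the word. Only the mRNA strand was searched, and no 2 of the 3 words can start at the same base.

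The matches below lie in the longest annotated 3′ UTR of the gene, all on chromosome 19 of GRCh38. They are matches of 8 letters, in capitals, and are shown because the results turn on them: those of genes with low or high ratios, a pair in 1 gene, and a copy of a repeat.
ZNF136, miR-1, chr19:12189280-12189308, plus strand: tttccacattatatACATTCCAtcatatt
ZNF260, miR-1, chr19:36513275-36513303, minus strand: aaagaacttctaaaACATTCCAgaatacc
ZNF546, miR-1, chr19:40018471-40018499, plus strand: gtgtagcagaacatACATTCCAaagatgg
ZNF577, miR-1, chr19:51869216-51869244, minus strand: ggtttcacaccaagACATTCCAttcccag
ZNF577, miR-1, chr19:51867933-51867961, minus strand: atgcaagggagaagACATTCCAggttctc
ZNF614, miR-122, chr19:52013695-52013723, minus strand: acctttttatgcttACACTCCAtccaaac
ZNF548, miR-122, chr19:57402317-57402345, plus strand: gctagtgggctttcACACTCCAgactgct
ZNF724, miR-122, chr19:23221621-23221649, minus strand: gagtttgtgccaccACACTCCAgcctggg
ZNF577, miR-124, chr19:51867084-51867112, minus strand: tagcttcatacagaGTGCCTTAagtgtga

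The deposited values are FPKM, reads scaled to the length of the gene and the size of the library, and the reads behind them were recovered from the steps between low values. Libraries held between 5887055 reads (miR-122) and 9452232 reads (miR-1). Levels of different genes are compared as exon RPKM, the recovered reads scaled to the length of the exons and to library size, since the deposited FPKM divide by a length that includes introns. Of 8 kidney epithelial and embryonic markers, 5 (CDH2, KRT18, KRT8, LHX1, and VIM) were above an exon RPKM of 1 in all libraries, and the summed level of the list was 446 to 504. Of the markers of the tissues of the 3 miRNAs, DES alone of 5 muscle markers passed that level (summed level of the list 3.82 to 6.27), and none of 5 liver markers (0.237 to 0.33) or 5 neuronal markers (1.89 to 2.48) did.

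The group held few reads for its size. Its 227 genes took 0.361% of all reads in the control. In the miR-1 library they took 0.353%, a ratio of 0.977 (95% interval 0.961 to 0.993), in the miR-122 library 0.372% (1.03, 1.01 to 1.05), and in the miR-124 library 0.365% (1.01, 0.992 to 1.03). As a whole the group therefore took nearly the same share of each library. Mean reads per gene over the 4 libraries ranged from 2.25 to 920, with a median of 73.8, against 109 for all 20510 genes and 202.2 for protein-coding genes. A mean of at least 50 reads was reached by 155 members and of at least 200 by 26, whereas 10 had a mean under 10.

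Members just inside the threshold rested on single reads. ZNF541 had 0.0172, 0.015, 0.0435, and 0.0044 FPKM in the control, miR-1, miR-122, and miR-124 libraries, which were 4, 5, 9, and 1 reads. ZNF442 had 1, 8, 7, and 10 reads, and its miR-124 ratio of 10.2 had an interval from 1.46 to 445. Just outside, ZNF20 had 0.0032 FPKM in the control, or 1 read, and was above 0.004 with each mimic. Of the 22 genes left out, 4 were at 0 in all libraries, 15 were at 0 in the control, and none had more than 9 reads in any library. Among them were ZNF93, known to bind LINE-1 elements, with 2 reads in the miR-1 library, 1 with miR-124, and 0 elsewhere, and ZNF208 with 3, 5, 1, and 0 reads.

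A KRAB-like stretch, 1 of 2 conserved pieces of the KRAB A box in the translated coding sequence, was found in 191 of the 227 members (84.1%), against 0.33% of human proteins with fewer than 2 fingers. The number of C2H2 fingers ran from 1 to 32 with a median of 13, and 194 members had at least 1 of the TGEKP linkers that join fingers. ZNF91, which is known to repress SVA retrotransposons, had the most fingers. The 3′ UTRs of the members had a median GC content of 40.3%, below the 44.3% of protein-coding genes and far below the 57.1% of the other protein-coding genes of chromosome 19. Their median 3′ UTR length was 2320 bases, against 1772.

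Shared sequence limits what can be said of single genes. In the median member, 3.96% of the 50-letter words of its exons also occurred elsewhere in the genome, but 36 members had at least 10% and 10 had at least 20%. ZNF492 was the highest with 46.6%, and ZNF417 (34%) and ZNF587 (26.7%), a pair of paralogs known to repress HERV-K elements, were among the 10. In addition, 59 members shared at least 10% of their exonic bases with another annotated gene. How reads with several matches or on overlapping genes were counted is not given in the sources used here, and strand is not stated, so values of such genes are uncertain.

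The median exon RPKM was 1.93, against 4.87 for protein-coding genes. KRAB-like members had a median level of 1.74 and the others of 5.39, and only 4 of the 20 highest members were KRAB-like. ZNF428, a small protein with 1 finger, had by far the highest level, followed by ZNF579, ZNF787, ZNF146, and ZNF358, none of them KRAB-like. ZNF146, known as OZF, consists of fingers almost alone.

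**Figure D1:**
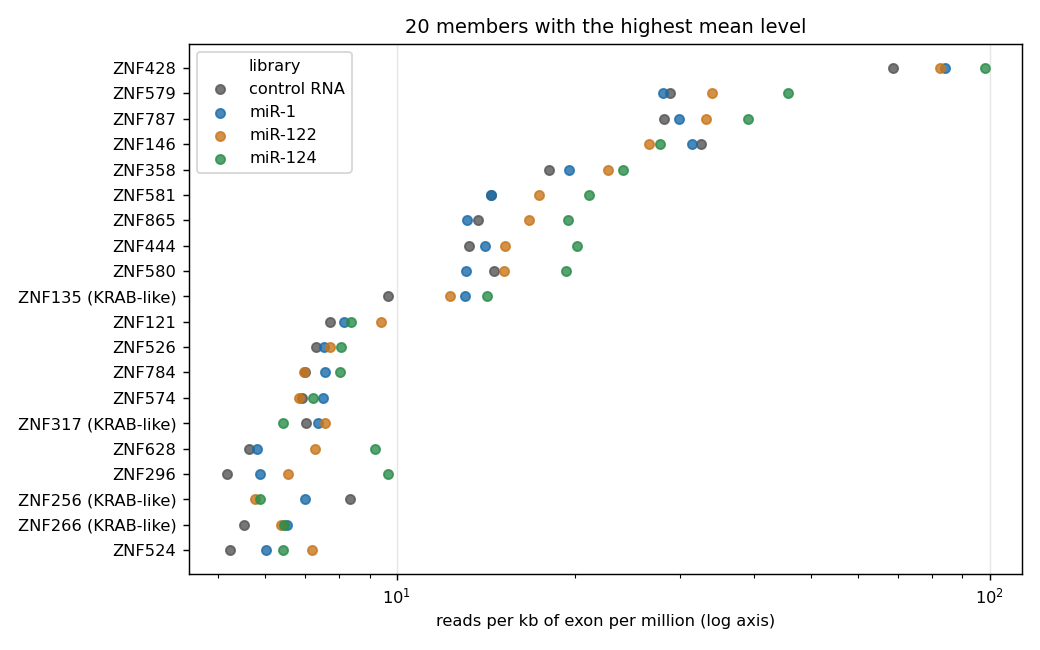
Level in exon RPKM (reads per kb of exon scaled to library size, log axis) of the 20 members with the highest mean level, 1 point for each of the 4 libraries. ZNF428 lies between 68.8 and 98.1 in the 4 libraries, the next member below 50, and 4 of the 20 are marked as KRAB-like.

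ZNF428 was at an exon RPKM of 68.8 in the control and at 84, 82.5, and 98.1 in the libraries of miR-1, miR-122, and miR-124 mimics, an order kept for the values that follow. The control was the lowest of the 4, and the ratios were 1.22 (1.11 to 1.34), 1.20 (1.08 to 1.33), and 1.43 (1.29 to 1.57), all 3 against the same control library. It shared 32.1% of its exonic bases with another gene. ZNF579 was at 29, 28.1, 34, and 45.8, and ZNF787 at 28.2, 30, 33.2, and 39.2. In both, the miR-124 library stood highest, with ratios of 1.58 (1.43 to 1.75) and 1.39 (1.26 to 1.53). ZNF146 was the reverse, with 32.7, 31.5, 26.7, and 27.9, and its interval was below 1 for miR-122 (0.818, 0.738 to 0.905) and miR-124 (0.853, 0.773 to 0.941). ZNF358 was at 18.1, 19.6, 22.8, and 24.1. Among these 5, ZNF428 was the highest and ZNF358 the lowest in each library, while ZNF579, ZNF787, and ZNF146 changed places, with ZNF146 above the other two in the control and below them with miR-122 and miR-124.

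The ratio of a gene is its FPKM with the mimic divided by that with the control RNA, without a pseudocount. For miR-1, the median log2 ratio of the 227 members was -0.06, against -0.07 for all genes, and 127 members (55.9%) were below 1, with 56.9% of all genes. At least 1.5-fold lower were 19 members (8.37%, with 12.4% of all genes past the same fold), and at least 1.5-fold higher were 9 (3.96%, with 7.49% of all genes). The interval lay wholly below 1 for 27 members (11.9%, with 18% of all genes) and wholly above 1 for 10 (4.41%, with 10.9% of all genes). Each of these 4 shares was smaller than that of all genes, whose median of reads was higher, and the medians were close.

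With miR-122 the median was -0.006, against -0.02 for all genes, and 115 members (50.7%) were below 1, with 52.2% of all genes. Members at least 1.5-fold lower numbered 15 (6.61%, 10.4% of all genes), and 15 were at least 1.5-fold higher (6.61%, 9.09% of all genes). Intervals wholly below 1 were found for 16 (7.05%, 11.7% of all genes) and wholly above 1 for 21 (9.25%, 9.63% of all genes). The counts past the fold and the count of low intervals were under the background, and the count of high intervals was close to it.

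miR-124 gave the lowest median, -0.12, against -0.04 for all genes, and 147 of 227 members (64.8%) were below 1, with 53.5% of all genes. At least 1.5-fold lower were 30 members (13.2%, with 10.7% of all genes), and at least 1.5-fold higher were 15 (6.61%, with 9.47% of all genes). The interval lay below 1 for 34 (15%, with 15.2% of all genes) and above 1 for 15 (6.61%, with 11.6% of all genes). Low intervals were thus nearly as frequent as in all genes, and the share with high intervals was smaller.

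The median counting error of the members was between 0.22 and 0.25 on the log2 scale for the 3 mimics, and the SD of their log2 ratios between 0.436 and 0.545. Among the 155 members with a mean of at least 50 reads, 6 were at least 1.5-fold lower with miR-1 (3.87%, with 5.04% of genes at that depth), 3 with miR-122 (1.94%, with 2.5%), and 13 with miR-124 (8.39%, with 3.23%). At least 1.5-fold higher were 1 with miR-1 (0.645%, with 1.03%), 2 with miR-122 (1.29%, with 1.47%), and 6 with miR-124 (3.87%, with 1.95%). With miR-124 the members' share was above that of all genes at this depth in both directions, and with the other mimics it was below. The median counting error with miR-124 was 0.204 for these members and 0.132 for all genes at this depth. Of the 155, 125 were KRAB-like, among them 12 of the 13 lower and 1 of the 6 higher with miR-124. Related groups showed 1 direction each with miR-124 at this depth. Of the ZNF genes of other chromosomes, 8.25% were at least 1.5-fold lower and 0% higher. Of the other protein-coding genes of chromosome 19, 0% were lower and 6.03% higher. Intervals below 1 were found for 20 members with miR-1 (12.9%, with 24.8% of genes at that depth), 11 with miR-122 (7.1%, with 16.6%), and 27 with miR-124 (17.4%, with 22%), and intervals above 1 for 8 (5.16%, with 15.7%), 17 (11%, with 13.4%), and 13 (8.39%, with 16.6%). These shares were smaller than those of all genes at that depth, whose median was 260.0 reads against 106.8 for the members. Ratios below 1 were found for 87 (56.1%, with 57%), 80 (51.6%, with 53.6%), and 100 of the 155 (64.5%, with 56.4%). In the 26 members with at least 200 reads, 15 of them not KRAB-like, the medians were above 0 with each mimic (0.07, 0.13, and 0.13). A 2-fold difference with any mimic was reached by 1 of the 155, ZNF432, and by 1.12% of all genes at that depth.

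Other groups of genes differed from the members in their medians. The 239 ZNF genes of other chromosomes had medians of -0.17, -0.07, and -0.13 with the 3 mimics in the same order, lower than the members for miR-1 and close to them for miR-124. The 876 other protein-coding genes of chromosome 19 had positive medians of 0.09, 0.14, and 0.25. The medians of the members lay below those of their chromosomal neighbors with each mimic. With miR-122 the members' median was near 0.

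Over all members, the KRAB-like ones lay lower than the others with each mimic. The median of the 191 KRAB-like members was -0.08 with miR-1, that of the other 36 was 0.09. In the miR-122 library these medians were -0.03 and 0.24, and in the miR-124 library -0.15 and 0.13. With miR-124, 134 of the 191 (70.2%) were below 1 and 13 of the 36 (36.1%). At a mean of at least 50 reads the miR-124 medians were -0.15 for 125 KRAB-like members and 0.25 for the other 30, and the difference went from -0.28 to -0.40. At 200 reads the KRAB-like members (11) were not the lower ones with miR-1, with 0.067 against 0.044 for the other 15, while with miR-122 (0.107 against 0.2) and miR-124 (-0.043 against 0.136) they were. Base composition moved with this split. A cubic trend was therefore fitted to 7164 protein-coding genes outside the group, all with a mean of at least 200 reads. It used the reads, the gene span, and the length and base composition of the 3′ UTR. Only 26 of the 227 members had that many reads, and the others were given the lowest depth among the fitted genes. The trend thus did not adjust for their lower depth. After it was subtracted, the difference between KRAB-like and other members went from -0.16 to -0.004 with miR-1. The miR-122 difference was -0.27 before and -0.045 after. The miR-124 difference was -0.28 before and -0.09 after. At 50 reads, with a trend fitted at that depth, it was -0.40 before and -0.154 after. With the first trend, the medians of all members were 0.024, 0.091, and 0.017. KRAB-like ZNF genes of other chromosomes (106) had medians of -0.18, -0.05, and -0.17. The 133 ZNF genes of other chromosomes without the pattern had -0.16, -0.08, and -0.09, so with miR-122 the KRAB-like ones there were not the lower ones. The number of fingers showed less. With miR-124 the medians were -0.02 for 56 members with under 10 fingers, -0.16 for 116 with 10 to 15, and -0.12 for 55 with more.

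**Figure D2:**
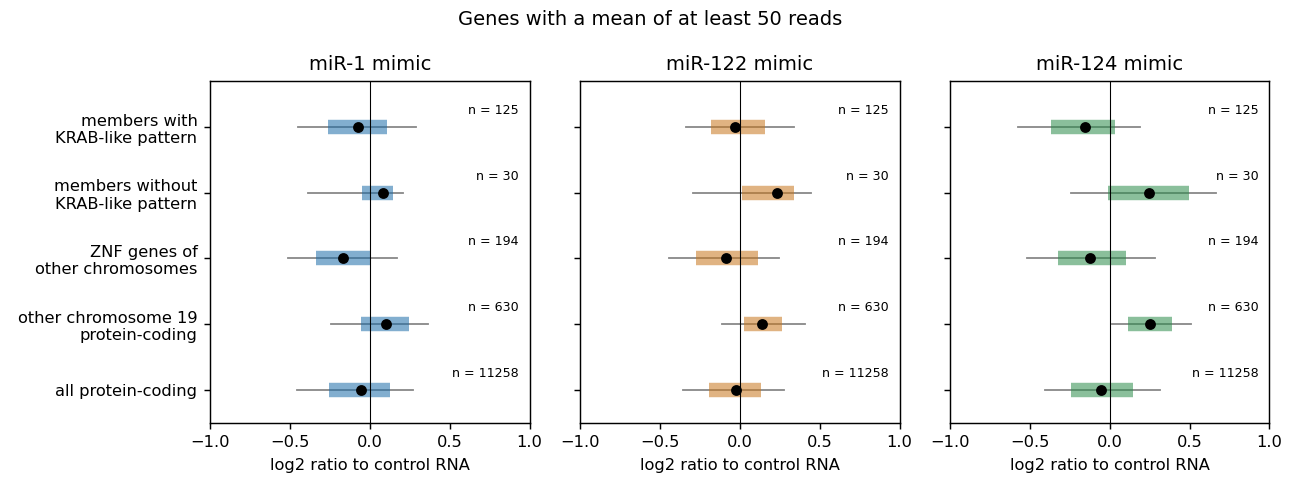
Log2 ratio to control RNA for genes with a mean of at least 50 reads, 1 panel for each mimic; points are medians, bars run from the lower to the upper quartile, and lines from the 10th to the 90th percentile of the genes, with n the number of genes. The members without a KRAB-like pattern (n = 30) and the other genes of chromosome 19 (n = 630) lie to the right of the KRAB-like members (n = 125) in every panel.

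The ratios of the members followed the GC content of the 3′ UTR, most closely with miR-124. In the 76 members with the lowest GC content (25.5% to 37.9%) the median with miR-124 was -0.27, in the 75 in the middle -0.15, and in the 76 with the highest (42.8% to 69.2%) 0.05. The same 3 sets gave medians of -0.07, -0.09, and 0.03 in the miR-1 library, and of -0.06, -0.02, and 0.16 in the miR-122 library. Across the 155 members with at least 50 reads, Pearson's r of the log2 ratio with GC content was 0.54 for miR-124, 0.30 for miR-122, and 0.20 for miR-1. Genes are no independent replicates, they share 1 library and 1 control library, and 11090 other protein-coding genes gave 0.61, 0.34, and 0.25 in the same libraries. The relation was thus also present outside the group, and its cause was not tested. Mean reads (r = 0.34 with miR-124, 0.09 in the other genes) and 3′ UTR length (-0.20, with -0.31 in the other genes) moved with the miR-124 ratio as well.

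Along the chromosome the members fell into 21 clusters, with a gap of at least 500 kb between them, and 10 clusters of 5 or more held 209 of them. The cluster from ZNF302 to ZNF792 (5 members, all KRAB-like, 34.7 to 35.0 Mb) had the lowest medians of the 10 with miR-1 (-0.64) and miR-124 (-0.56), but 0.05 with miR-122. In it, 4 of 5 members were below 1 with both miR-1 and miR-124, as were 56.9% and 53.5% of all genes. ZNF599 was above 1 with all 3 mimics. The cluster from ZNF628 to ZNF835 (16 members, 55.5 to 56.7 Mb) stood at the other end with miR-124, with a median of 0.35. With that mimic 12 of its 16 members were above 1, while 53.5% of all genes were below 1. It held only 6 KRAB-like members, and the median GC content of its 3′ UTRs was 55.1%. ZNF579, ZNF787, and ZNF444 lie in it.

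The 6 clusters of 20 or more members, all mostly KRAB-like, differed in how many members were below 1 with miR-124, where 53.5% of all genes were. In the cluster from ZNF565 to ZNF573 (36.2 to 37.8 Mb, median -0.24) these were 22 of 26, and in that from ZNF175 to ZNF331 (51.6 to 53.6 Mb, median -0.19) 30 of 37. The cluster from ZNF101 to ZNF257 had 15 of 20, that from ZNF575 to ZNF180 had 16 of 23, and that from ZNF653 to ZNF791 had 12 of 20. The largest cluster, from ZNF264 to ZNF446 (43 members, 57.2 to 58.5 Mb), had 26 of 43 and medians of -0.11, -0.02, and -0.07 with the 3 mimics. Neighbors in a cluster are often paralogs and can share reads, so they do not count as separate observations.

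**Figure D3:**
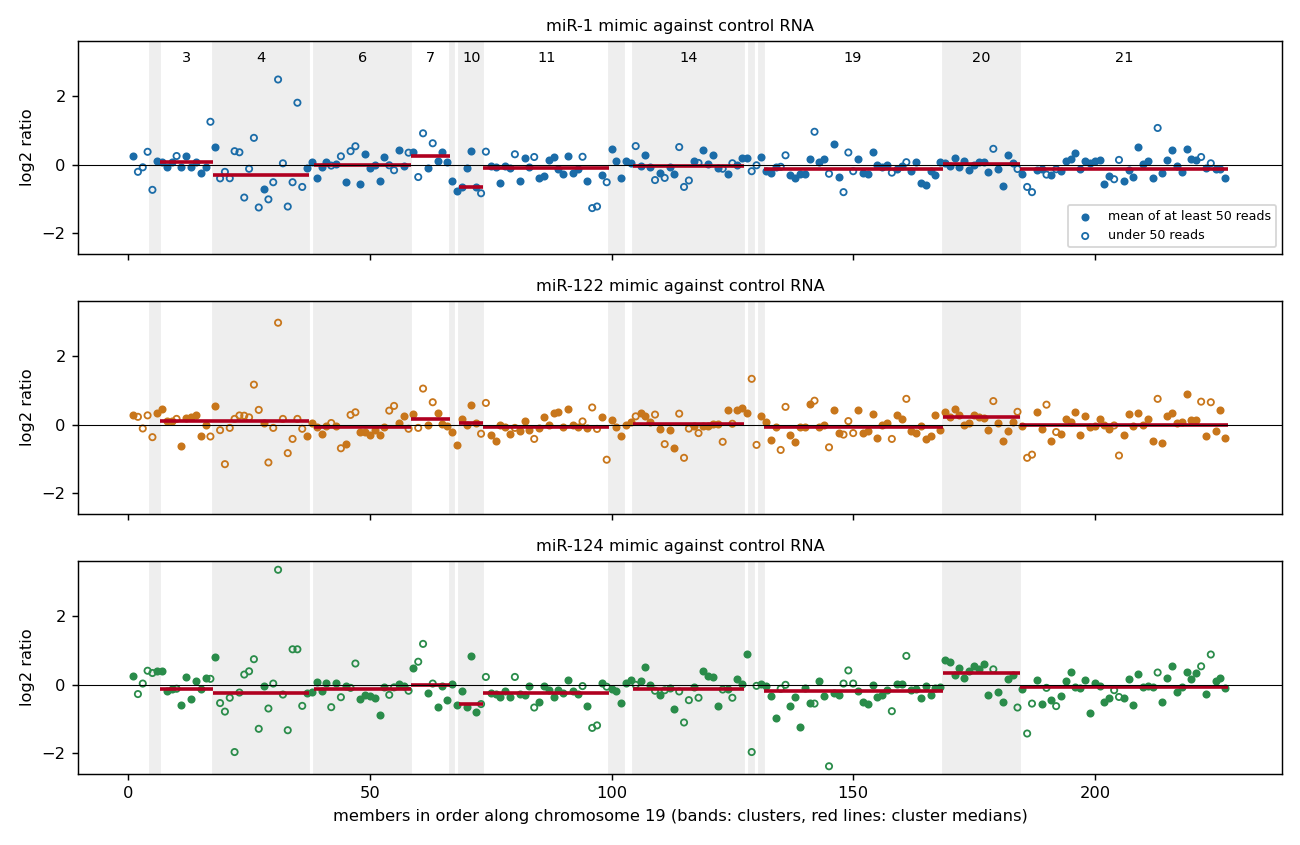
Log2 ratio to control RNA of the 227 members in their order along chromosome 19, filled points for a mean of at least 50 reads and open points for fewer; bands mark the 21 clusters, and red lines the medians of the 10 numbered clusters of 5 or more. Cluster 10 (ZNF302 to ZNF792) is low with miR-1 and miR-124, and cluster 20 (ZNF628 to ZNF835) is high with miR-124, while the points farthest from 0 are open.

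Among members with at least 50 reads, ZNF507 was the lowest with miR-1. This gene, with 10 dispersed fingers and no KRAB-like stretch, had 1.72 FPKM in the control and 0.998, 1.13, and 1.13 FPKM in the mimic libraries, from 478, 397, 279, and 308 reads. The control was thus higher than each mimic, and the 3 mimics were close together. Its ratios were 0.582 (0.508 to 0.666), 0.657 (0.565 to 0.763), and 0.660 (0.570 to 0.763). Against the mean of the other 2 mimics they were 0.884, 1.06, and 1.07, and it had no match for any of the 3 seeds in its 3′ UTR.

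ZNF136, a KRAB repressor, had 0.394, 0.241, 0.405, and 0.386 FPKM in the control, miR-1, miR-122, and miR-124 libraries, from 70, 61, 64, and 67 reads. The miR-1 library was the lowest and the other 3 were close together, with a miR-1 ratio of 0.611 (0.426 to 0.873), and the ratio to the other mimics was nearly the same, 0.608. Its miR-1 match of 8 letters is shown above. ZNF302 had 3.53, 2.27, 3.98, and 3.13 FPKM, and it too was lowest with miR-1 (0.643, 0.524 to 0.787, and 0.640 against the other mimics), but its 3′ UTR held no match. ZNF30, of the same cluster, was low with both miR-1 (0.642, 0.437 to 0.942) and miR-124 (0.581, 0.370 to 0.899), from 60 control reads. It had a miR-1 match in its coding sequence.

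The highest with miR-1 was ZNF880, with 0.599, 0.919, 0.813, and 0.506 FPKM and a ratio of 1.53 (1.13 to 2.10). ZNF587B followed with 1.42, also with an interval above 1. For ZNF653 (1.42, 0.969 to 2.11) and ZNF546 (1.37, 0.959 to 1.99) the interval included 1. ZNF546 carried a miR-1 match of 8 letters, shown above, beside its FPKM of 0.196 in the control and 0.27 with miR-1.

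Low ratios with miR-122 were found for ZNF230, ZNF559, ZNF507, and ZNF486. ZNF230 had 0.963, 0.79, 0.604, and 0.592 FPKM in the 4 libraries, so it was as low with miR-124 (0.615, 0.409 to 0.914) as with miR-122 (0.627, 0.412 to 0.941). ZNF559 was alike, with 0.649 (0.440 to 0.949) and 0.670 (0.461 to 0.966). ZNF486 was low with miR-1 (0.701, 0.503 to 0.976) and miR-122 (0.681, 0.462 to 0.995) and near 1 with miR-124. None of these 4 had a miR-122 match in the 3′ UTR.

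ZNF544 was the highest with miR-122, with 0.21, 0.286, 0.389, and 0.272 FPKM from 68, 132, 112, and 86 reads. The control was its lowest library, and the ratio of 1.85 (1.36 to 2.54) was 1.40 against the other mimics. ZNF616 was high with miR-122 (1.51, 1.08 to 2.12) and at 0.688 (0.457 to 1.03) with miR-124. ZNF599 and ZNF653 had intervals that included 1 with miR-122.

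With miR-124 the lowest was ZNF432, a KRAB-like member with 17 fingers, at 0.157 FPKM in the control and at 0.13, 0.15, and 0.067 FPKM in the mimic libraries. These were 67, 79, 57, and 28 reads, and the miR-124 library alone stood apart, with a ratio of 0.428 (0.265 to 0.675) and of 0.480 against the other mimics. Its 3′ UTR held 1 miR-124 match of 7 letters. ZNF649, reported to bind LINE-1 elements, had 0.955, 0.916, 0.902, and 0.489 FPKM from 100, 137, 84, and 50 reads. It too was low in that library alone, with 0.512 (0.357 to 0.726), and held no match. ZNF708 (0.544, 0.348 to 0.838) and ZNF416 (0.569, 0.365 to 0.874) completed the 4, also without a match.

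The members highest with miR-124 were mostly not KRAB-like. ZNF296, a factor of embryonic stem cells, had 1.66, 1.89, 2.1, and 3.1 FPKM from 56, 91, 63, and 102 reads. Its miR-124 ratio was 1.87 (1.33 to 2.63), and 1.55 against the other mimics. ZNF628 had 1.63 (1.31 to 2.04), ZNF653, a repressor of the nuclear receptor NR5A1, had 1.76 (1.18 to 2.63), and the KRAB-like ZNF599 had 1.79 (1.20 to 2.71). ZNF599 alone of these 4 held a miR-124 match, of 7 letters, and it also held a miR-1 match of 8 letters beside a miR-1 ratio of 1.33, with an interval that included 1. The 3′ UTRs of ZNF296, ZNF628, and ZNF653 had a GC content of 51.9%, 69.2%, and 60.7%, and that of ZNF599 of 38.9%.

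**Figure D4:**
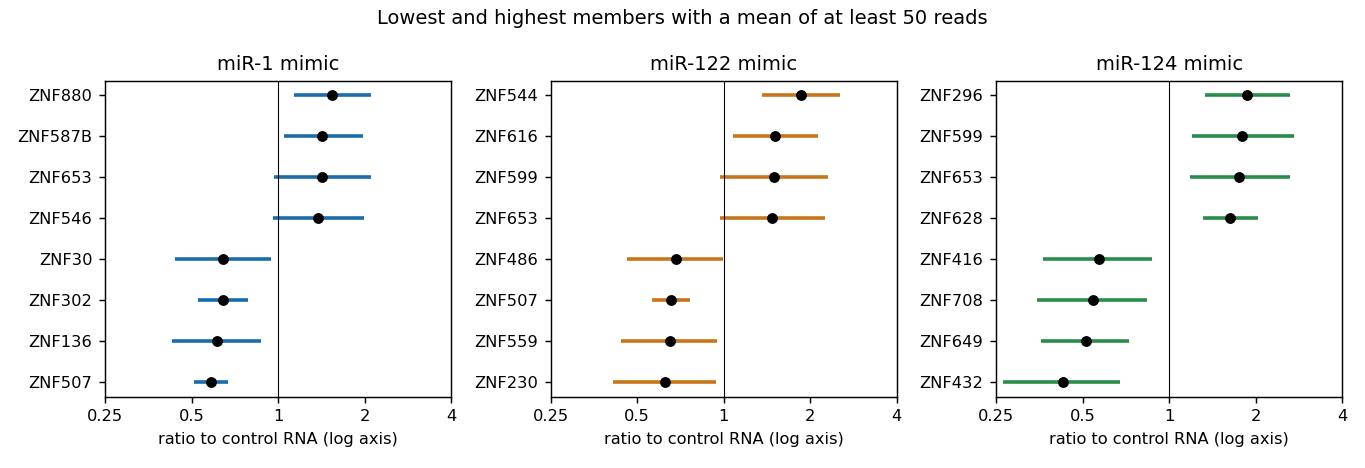
Ratio to control RNA (log axis) of the 4 lowest and 4 highest members with a mean of at least 50 reads, 1 panel for each mimic; points are ratios and lines 95% intervals for counting error. The lowest point is ZNF432 with miR-124 (0.428, 0.265 to 0.675), and intervals of ZNF653 and ZNF546 with miR-1 and of ZNF599 and ZNF653 with miR-122 cross 1.

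Of the 11 members named for known roles, 6 had intervals that included 1 with each mimic, as did 143 of all 227 members. ZNF91 had 0.29, 0.272, 0.287, and 0.244 FPKM, and its ratios of 0.939, 0.989, and 0.842 had intervals that included 1. ZNF274, which recruits SETDB1 to the 3′ ends of zinc finger genes, had 1.48, 1.29, 1.56, and 1.41 FPKM, again with each interval including 1, and the same held for ZNF331, an imprinted gene, for ZNF382, and for ZNF587. ZNF568, whose mouse counterpart silences an Igf2 promoter, had ratios of 0.800, 1.17, and 0.981, each with 1 in its interval.

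Others of these genes left 1 with a mimic. ZNF444, a SCAN-type factor first described in endothelial cells, had 3.35, 3.56, 3.84, and 5.09 FPKM, with ratios of 1.06 (0.961 to 1.18), 1.15 (1.03 to 1.28), and 1.52 (1.37 to 1.69). ZNF675, an inhibitor of TRAF6 signaling, was at 1.54 (1.02 to 2.37) with miR-1 from 35 control reads. It was as high in the miR-122 library, at 1.575, with an interval whose lower limit rounded to 1. The miR-124 library gave 1.025. Against the mean of the other mimics the miR-1 ratio was 1.186. The 3′ UTR of ZNF675 held a miR-1 match of 7 letters. The paralogs ZNF417 and ZNF587 had 0.723 (0.527 to 0.985) and 1.13 (0.951 to 1.33) with miR-122, and since they share much of their sequence, reads of either may have been counted for the other.

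Matches for the transfected miRNA's seed in the 3′ UTR were about as common in the members as in protein-coding genes (16.7% and 15.1% for miR-1, 9.69% and 10.6% for miR-122, 17.2% and 18.3% for miR-124). With miR-1, the 38 members with a match had a median of -0.18 and the 189 without one of -0.05. In the miR-122 library the same 38 had -0.03 and the others -0.001, and in the miR-124 library -0.12 and -0.11, so the gap was widest with miR-1. The difference between the gaps was not tested. After the trend was subtracted, the miR-1 difference went from -0.129 to -0.068. The 14 members (6.17%, with 6.03% of protein-coding genes) with a miR-1 match of 8 letters had -0.25, against -0.06. The 12 with a miR-1 match in the coding sequence (5.29%, with 9.63% of protein-coding genes) had -0.27, against -0.05. For the other miRNAs, members with a coding-sequence match were not the lower ones in that miRNA's library. The 11 for miR-122 (4.85%, with 7.47%) had 0.032, against -0.008. The 12 for miR-124 (5.29%, with 11.3%) had -0.017, against -0.118.

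Single genes with miR-1 matches varied. ZNF260, with 2 matches, had 1.91, 1.32, 1.91, and 1.5 FPKM from 227, 224, 202, and 174 reads, and its miR-1 library was the lowest, at 0.692 (0.572 to 0.835). ZNF536, known to restrain neuronal differentiation and with 3 matches, was at 0.723 (0.540 to 0.969). ZNF577, whose 2 matches both had 8 letters, was at 0.837 (0.658 to 1.06). This was not below its ratios of 0.741 with miR-122 and 0.802 with miR-124. However, ZNF577 also held a miR-124 match of 8 letters, shown above. ZNF8 (1.12), ZNF226 (1.01), ZNF585A (1.16), ZNF382 (0.943), and ZNF547 (0.818) had 2 matches each, and intervals that included 1.

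For miR-122 the 22 members with a match had a median of -0.05 and the 205 without of 0, a difference of -0.046 that was -0.017 after the trend was subtracted. The 13 with a match of 8 letters (5.73%, with 3.96% of protein-coding genes) had -0.12, against 0.03. Of the 13, 11 were below 1, as were 104 of the other 214 members. However, these 13 had -0.26, against -0.05, in the miR-1 library and -0.23, against -0.11, in the miR-124 library, and some of them also held matches for those miRNAs. In the miR-1 library the median was -0.13 without the 3 that held a miR-1 match, against -0.04 for the 179 members with neither match. Of the other 10, 7 were below 1, where 56.9% of all genes were. In the miR-124 library it was -0.16 without the 5 that held a miR-124 match, against -0.12 for the 180 members with neither match. Of the other 8, 5 were below 1, where 53.5% of all genes were. ZNF614, with a miR-124 match as well, had 1.27, 0.975, 0.894, and 0.982 FPKM, with the control above each mimic and ratios of 0.768 (0.610 to 0.967), 0.704 (0.537 to 0.920), and 0.774 (0.599 to 0.997). ZNF548, which held a match for each of the 3 miRNAs, was at 0.717 (0.517 to 0.988) with miR-122, and at 0.811 and 0.733 with miR-1 and miR-124. ZNF264, with 3 miR-122 matches and 1 for each of the other two miRNAs, was at 0.975 (0.792 to 1.20).

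Several of the miR-122 matches lay in copies of one repeat. The word ACACTCCA followed by GCCTGG, which resembles the Alu consensus, made up 6 of the 14 matches of 8 letters in the members (42.9%), 66 of 584 in other protein-coding genes (11.3%), and 1 of 14 in ZNF genes of other chromosomes. The members were ZNF846, ZNF791 with 2 copies, ZNF101, ZNF429, and ZNF724. Their median with miR-122 was -0.05 (-0.34 to 1.06), and that of the other 8 members with a match of 8 letters -0.17 (-0.51 to -0.009). Only the exact letters were counted as the repeat. In ZNF557 and ZNF383, which are among these 8, nearly the same letters follow the match, so the split may miss altered copies. ZNF791 was at 0.796 (0.613 to 1.03), and ZNF724, with 13 control reads, at 2.08 (1.02 to 4.44).

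With miR-124 the medians lay close together. The 39 members with a match had a median of -0.10 and the 188 without of -0.12, and the 5 with a match of 8 letters (2.2%, with 3.67% of protein-coding genes) had -0.12, against -0.11. Of the members with 2 or more, ZNF431 was at 0.768 (0.612 to 0.963), ZNF766, with 3, at 1.07 (0.785 to 1.47), ZNF875 at 1.10 (0.920 to 1.33), ZNF546 at 0.918 (0.594 to 1.42), and ZNF587B at 1.24 (0.874 to 1.76). ZNF431 alone of these 5 had an interval below 1.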

How the data were processed

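Single-end RNA-seq was made from total RNA of 4 transfected 293T samples. Per the submitters' processing notes and the study's methods, bases were called with CASAVA 1.8, reads were trimmed and aligned to GRCh38 with HISAT2 2.0.0, and the authors deposited FPKM, with 1 value in each library for every Ensembl gene. The counting program, its treatment of reads with several matches, and the annotation are not given in the sources used here.

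Genes were matched to GENCODE release 44 (57532 of 58243). Whole reads were recovered for 99.7% of the 32358 genes above 0. The gene's length was taken as its annotated span or as the smallest length that makes reads whole. Of the 227 members, 95 took the annotated span, and 212 had a length within 4% of it. For the rest the length could be a fraction of the true one, which would give too few reads and too wide an interval. Ratios to the control RNA library carried no pseudocount, and their 95% intervals came from exact Clopper-Pearson limits on the mimic library's share of a gene's reads, rescaled by library size. No test was made, since each condition had 1 library. Protein features were read from translated GENCODE coding sequences, not from a protein table, and matches from the longest annotated 3′ UTR.

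Members and lists were chosen with earlier results of these data known. A listed marker and a matched sequence are not reported here. Named were the 5 members with the highest level, the 4 lowest and 4 highest with each mimic among those with at least 50 reads, members with listed known roles, those nearest to the threshold, and those with 2 or more matches. Other members were named for clusters, for matches of 8 letters, or for shared sequence after their values were seen. Alternatives were pseudocounts of 1 and 0.1, filters of 50 and 200 reads, centring, the other mimics as the reference, and the subtracted trend. A trend fitted at 50 reads and the removal of members that share sequence or exons, or that hold matches for another mimic, were added after seeing the data. On simulated libraries for miR-124 against control, all 4 library sizes came back. Of 199 intervals taken from the drawn reads, not from recovered ones, 96% held the true ratio. The reads were drawn with counting error only, so that share was set by the design and covers no other variation. Python 3.11.15, numpy 2.4.6, pandas 2.3.3, scipy 1.17.1, and matplotlib 3.10.9 were used.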

Additional observations from a re-analysis of the deposited data

How the results depend on the processing

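No paired analysis was possible because there was a single library of each kind, and for the same reason no replicate could be left out. Of 81 alternatives for values over the members, 38 left the value within its spread and 43 moved it further. For the medians, this spread was an interval of the median across the members, from -0.091 to 0.002 with miR-1 and from -0.174 to -0.058 with miR-124. It rests on the scatter among members, which are no independent replicates, and not on the counting of reads. The cause of these shifts was not tested, except that stricter filters hold fewer genes and that a pseudocount shrinks ratios of low values. With the 3 mimics in the order used above, the medians were 0.066, 0.126, and 0.129 for members with at least 200 reads, 0.024, 0.091, and 0.017 after the trend was subtracted, and 0.058, 0.09, and 0.023 with the trend at 50 reads, so each sign differed from that of the value given. Centred on all genes, the miR-1 median was 0.004, with the other mimics as the reference the miR-122 median was 0.089, and with a pseudocount of 1 the miR-124 median was -0.029. The trend made the difference between KRAB-like and other members -0.004 for miR-1 and -0.045 for miR-122, and at 50 reads 0.038 and -0.043. For miR-124 the difference went from -0.283 to -0.09, and at 50 reads from -0.401 to -0.154, smaller but with the same sign. Counts at least 1.5-fold lower with the 3 mimics were 0, 0, and 0 with a pseudocount of 1, 6, 5, and 12 with 0.1, 6, 3, and 13 at 50 reads, and 1, 1, and 1 at 200 reads. Counts at least 1.5-fold higher were 0, 0, and 2 with a pseudocount of 1, 0, 2, and 9 with 0.1, 1, 2, and 6 at 50 reads, and 0, 0, and 2 at 200 reads. Centring gave 12 lower for miR-1, and the other reference 8 lower for miR-122 and 6 higher for miR-124. Of 276 alternatives for the 46 named members, 2 reversed a direction, both for ZNF507 against the other mimics (0.081 for miR-122 and 0.092 for miR-124), 41 moved, and 233 did not. Depth limited the single genes, since 155 of 227 members reached a mean of 50 reads and 26 a mean of 200.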

Other observations

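The mRNAs of proteins through which KRAB zinc finger proteins act had a median of 1104 reads. Some had far fewer, such as MORC3 with 109 control reads. All 25 genes of a list of KRAB corepressor and heterochromatin genes were above 0.004 FPKM in the 4 libraries, and their median log2 ratios in the 3 mimic libraries, in the order used above, were -0.14, -0.03, and -0.09. The interval was below 1 for 10, 6, and 11 of them and above 1 for 4, 5, and 5, against the same control library. These were 40%, 24%, and 44% below and 16%, 20%, and 20% above, where genes with a mean of at least 200 reads, whose median was 457.2, had 27.4%, 20%, and 26.4% below and 22%, 17.9%, and 22.1% above. TRIM28, the corepressor that binds the KRAB box, had 96.2, 96.3, 106.6, and 115.8 FPKM in the control, miR-1, miR-122, and miR-124 libraries, with ratios of 1.00, 1.11, and 1.20. SETDB1, the methyltransferase, had 1.63, 1.32, 1.49, and 1.47 FPKM and was lowest with miR-1 (0.810). CBX5, which encodes HP1 alpha, had 3.37, 2.52, 3.28, and 2.91 FPKM and was at 0.747 with miR-1. ATF7IP2, a relative of the SETDB1 partner ATF7IP, was the only gene of the list past 1.5-fold, at 1.62 (1.28 to 2.06) with miR-1 from 101 control reads.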
